A study of Mus musculus with 24 samples.

Results

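The genes described here are 37 genes of the lysosome, out of 56941 gene IDs counted in every library. They come from a list of soluble hydrolases, their cofactors and lysosomal membrane proteins, chosen with earlier results of these data known. They fall into 7 proteases, 12 glycosidases (the amidase Aga among them), 5 sulfatases, 5 lipid enzymes and activators, 7 membrane proteins and the progranulin gene Grn. They were measured by RNA sequencing of polyadenylated RNA from an adult mouse hypothalamic neuronal cell line. The culture medium held either high or normal glucose, and mogroside V, a sweetener extracted from monk fruit, was added or not. The groups were read from the sample titles as high-glucose control (HGC), high glucose with dose label 1, 2 or 3 (HG1, HG2, HG3), normal-glucose control (NGC) and normal glucose with the same dose labels (NG1, NG2, NG3). The design names 15, 60 and 160 µM mogroside V, and no label used here ties a dose number to a concentration. Of 24 libraries, 3 per group, the files of HG2 replicate 3 and HG3 replicate 2 were identical, and both were left out, because the labels do not tell which dose that library had. This left 10 high-glucose and 12 normal-glucose libraries, with n = 2 in HG2 and in HG3 and n = 3 in each other group. Whether replicates are separate cultures is not stated in the labels, and a p-value therefore refers to the spread among these libraries alone, which could be technical.

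Lysosomes are acidic organelles in which hydrolases break down proteins, glycans, sulfated sugars and lipids brought in by endocytosis and autophagy. Most of the soluble enzymes are made in the endoplasmic reticulum, tagged with mannose 6-phosphate in the Golgi and carried to the lysosome by receptors, whereas membrane proteins such as LAMP1 and LAMP2 line the organelle and transporters export the breakdown products. Inherited loss of many of these proteins causes lysosomal storage disease, often with damage to neurons. Many lysosomal genes share a promoter element built on TCACGTG and its core CACGTG, to which the transcription factor TFEB and its relatives bind.

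Because that element is a feature the members could share independently of their counts, their promoters were read from the RefSeq table for GRCm38.p6, which gives 250 bases before to 50 bases after each gene's start. Matched by gene symbol, the table held windows for 33 of the 37 members, and 5 of those had 2 windows. TCACGTG, searched on both strands, was found in a window of 12 of the 33 (36.4%), against 1160 of 27025 genes in the table (4.29%). Its core CACGTG, which lies inside TCACGTG, was found in 13 of the 33 (39.4%), against 8.09% of all genes. A gene counted as holding a motif if any of its windows did. Since the element is known from lysosomal genes, a higher share in a list of such genes was to be foreseen. These matches describe the letters in the windows and do not show that any factor bound there.

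For the 6 members with more than 1 site, the window that holds them is shown in full, and that of Grn, the member with the lowest p-value between the media, as one without a match. Each reads 5′ to 3′ in the direction of transcription, and capitals mark TCACGTG or its reverse complement CACGTGA, with overlapping matches joined into 1 site.
Lamp1 (chr8:13158911-13159210, plus strand): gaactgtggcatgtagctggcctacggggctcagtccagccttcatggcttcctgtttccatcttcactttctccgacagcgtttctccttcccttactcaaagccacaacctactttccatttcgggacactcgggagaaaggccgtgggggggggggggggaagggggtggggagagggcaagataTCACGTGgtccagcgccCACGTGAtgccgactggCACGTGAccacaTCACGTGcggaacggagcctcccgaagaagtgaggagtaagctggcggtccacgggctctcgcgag
Mcoln1 (chr8:3500269-3500568, plus strand): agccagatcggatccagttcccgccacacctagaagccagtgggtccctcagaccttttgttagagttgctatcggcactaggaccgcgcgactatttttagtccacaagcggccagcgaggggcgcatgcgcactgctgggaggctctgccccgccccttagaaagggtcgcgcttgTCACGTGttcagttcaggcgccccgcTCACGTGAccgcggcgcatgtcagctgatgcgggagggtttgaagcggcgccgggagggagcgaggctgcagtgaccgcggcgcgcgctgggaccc
Gla (chrX:134600956-134601255, minus strand): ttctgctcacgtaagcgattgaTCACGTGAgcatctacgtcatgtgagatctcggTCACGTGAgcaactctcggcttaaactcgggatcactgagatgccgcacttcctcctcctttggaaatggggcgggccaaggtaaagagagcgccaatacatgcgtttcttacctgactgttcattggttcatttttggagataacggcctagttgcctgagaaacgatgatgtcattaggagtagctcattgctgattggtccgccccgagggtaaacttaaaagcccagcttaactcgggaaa
Ctsa (chr2:164833523-164833822, plus strand): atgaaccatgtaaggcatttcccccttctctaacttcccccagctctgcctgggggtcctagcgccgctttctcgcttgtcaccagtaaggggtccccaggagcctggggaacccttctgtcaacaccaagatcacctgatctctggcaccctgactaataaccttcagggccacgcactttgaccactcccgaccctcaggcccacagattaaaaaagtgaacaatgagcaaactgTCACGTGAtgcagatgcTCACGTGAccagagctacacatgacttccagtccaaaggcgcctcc
Ctsd (chr7:142387778-142388077, minus strand): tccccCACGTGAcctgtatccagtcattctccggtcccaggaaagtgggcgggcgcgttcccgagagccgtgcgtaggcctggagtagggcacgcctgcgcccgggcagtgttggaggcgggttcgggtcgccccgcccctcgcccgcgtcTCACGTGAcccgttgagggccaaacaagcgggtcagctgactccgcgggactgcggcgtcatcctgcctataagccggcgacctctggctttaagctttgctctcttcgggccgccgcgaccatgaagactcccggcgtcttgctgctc
Cln3 (chr7:126583187-126583486, minus strand): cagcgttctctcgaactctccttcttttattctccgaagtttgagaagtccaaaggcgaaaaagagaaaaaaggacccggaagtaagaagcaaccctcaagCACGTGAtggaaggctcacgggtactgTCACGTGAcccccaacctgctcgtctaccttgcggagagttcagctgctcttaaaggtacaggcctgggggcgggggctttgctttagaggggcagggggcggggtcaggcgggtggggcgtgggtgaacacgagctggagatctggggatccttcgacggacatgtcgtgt
Grn (chr11:102430257-102430556, plus strand): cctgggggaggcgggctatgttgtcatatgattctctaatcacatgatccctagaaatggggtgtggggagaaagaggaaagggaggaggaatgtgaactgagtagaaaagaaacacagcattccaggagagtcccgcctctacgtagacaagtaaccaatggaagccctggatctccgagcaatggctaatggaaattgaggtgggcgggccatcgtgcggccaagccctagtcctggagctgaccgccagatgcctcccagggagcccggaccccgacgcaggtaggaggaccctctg
In Lamp1 the 4 sites began 62, 45, 28 and 16 bases before the start. Mcoln1 had sites 72 and 46 bases before its start, and those of Gla lay farther away, at 228 and 195 bases. The Ctsa window shown held 1 site 13 bases before the start and 1 beginning at base 5 after it, whereas the other Ctsa window held none. The Ctsd sites lay 245 and 99 bases before the start, and those of Cln3 149 and 122 bases before it in the window shown, whereas the other Cln3 window held none. A single TCACGTG was present in Arsa, Gaa, Glb1, Lgmn, Naglu and Sgsh, and Ctsl held only the core.

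Counts assigned to genes ranged from 3396249 to 7773074 per library. The number of genes detected ranged from 16535 to 18935, with the fewest in NG3 replicate 3. Of the neuronal markers, Map2, Tubb3 and Stmn2 were counted in every library, whereas Elavl4 was at 0 in all 22 and Rbfox3, Snap25 and Syt1 had 10, 3 and 15 counts over all 22. The 9 neuronal markers summed to 104 to 127 CPM (counts per 1000000 gene counts of a library) in high-glucose libraries and to 116 to 153 CPM in normal-glucose libraries. The fibroblast and pericyte markers Col1a1, Col1a2 and Pdgfrb were abundant in both media, and that list of 9 summed to 4618 to 5786 CPM in high-glucose libraries and 3454 to 5626 CPM in normal-glucose libraries. Most of that sum was Col1a1 and Col1a2. In the same list Lum had 5 and Rgs5 72 counts over all 22 libraries, and Dcn had means of 8.90 CPM in high glucose and 6.62 CPM in normal glucose. Macrophage and microglial markers, of interest because such cells are rich in lysosomes, summed to 8.53 to 23.6 CPM over 10 genes in high-glucose libraries and 5.86 to 19.6 CPM in normal-glucose libraries. Itgam of that list was at 0 in all 22 libraries, and most of the list's counts came from Csf1r, with means of 9.42 CPM in high glucose and 5.36 CPM in normal glucose, and Cx3cr1. The part these marker differences had in the results below was not tested, and in bulk RNA fewer cells of a type and less RNA per cell cannot be told apart.

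All 37 members had counts. To set genes side by side, levels were taken per kilobase of all annotated exons of a gene joined. That length can exceed the expressed transcript, so the ranks are approximate. Cd63 had the highest level, with 1742 ± 156 CPM per kb in high glucose and 1253 ± 117 CPM per kb in normal glucose (mean ± SD, n = 10 and 12). Cd63 encodes a tetraspanin of late endosomes, lysosomes and exosomes. Psap, the precursor of the saposins, followed with 291 ± 54.8 CPM per kb in high glucose and 268 ± 59.9 CPM per kb in normal glucose, and Lamp1 with 247 ± 47.9 CPM per kb in high glucose and 172 ± 31.2 CPM per kb in normal glucose. The levels of Psap and Lamp1 lay within each other's spread in high glucose but not in normal glucose. Ctsd, Grn, Ctsl and Lamp2 came next in normal glucose. At the low end, Sgsh had 2.52 ± 0.388 and Cln3 2.09 ± 0.373 CPM per kb in high glucose, against 1.89 ± 0.493 and 1.78 ± 0.801 CPM per kb in normal glucose. Manba, the lysosomal beta-mannosidase, was the lowest, at 0.00 to 2.60 CPM in high-glucose and 0.00 to 2.28 CPM in normal-glucose libraries, and was the only member removed by the low-count filter, so 36 were tested.

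Many of the lysosomal genes were higher in high glucose, with most of the proteases and membrane proteins and the progranulin gene among them. Averaged over the control and the 3 dose labels, 20 of 36 tested members rose and 0 fell (edgeR quasi-likelihood test, adjusted p under 0.05 over 13281 genes). Among all tested genes 5.71% rose and 4.38% fell. The median standard error over the 4 levels was 0.08 for members and 0.12 for all tested genes, so an equal change passed more readily in a member. The median log2 change was 0.32 over the members and -0.01 over all tested genes, and 30 of the 36 (47.1% of all genes) had a positive change. DESeq2 called 21, of which 20 rose and 1 fell. Here and below, shares of all tested genes that passed come from edgeR, and none is given for DESeq2 or other settings. By class, 6 of 7 proteases rose (median log2 change 0.40), 5 of 11 tested glycosidases (0.20), 2 of 5 sulfatases (0.10), 1 of 5 lipid enzymes and activators (0.15), 5 of 7 membrane proteins (0.49) and Grn. No test of the difference between classes was made.

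The CPM of each class were also summed in single libraries. The 37 members together took 6518 to 7652 CPM in the 10 high-glucose libraries and 4612 to 6486 CPM in the 12 normal-glucose libraries, and these ranges did not overlap. The ratio of the means was 1.31. Cd63 alone had medians of 2533 CPM in high glucose and 1827 CPM in normal glucose, so this total mainly weighs the abundant genes. By class the ratio was 1.29 for proteases, 1.28 for glycosidases, 0.97 for sulfatases, 1.09 for lipid enzymes and activators, 1.38 for membrane proteins and 1.60 for Grn. The proteases summed to 1394 to 1587 CPM in high glucose, against 997 to 1385 CPM in normal glucose, and the membrane proteins to 3323 to 4088 CPM, against 2340 to 3154 CPM in normal glucose, both without overlap. The membrane sum is mostly Cd63. Glycosidases came to 445 to 513 CPM in high glucose and 305 to 456 CPM in normal glucose, where only the highest normal-glucose library, NG3 replicate 3, reached into the range of the other medium. The sums of sulfatases (105 to 130.0 CPM in high glucose, 101 to 136 CPM in normal glucose) and of lipid enzymes and activators (802 to 1230 CPM in high glucose, 495 to 1098 CPM in normal glucose) overlapped widely. The sulfatase sum, with a median of 116 CPM in high glucose and 125 CPM in normal glucose, is mostly Ids, which had a negative estimate. The sum of lipid enzymes and activators is mostly Psap, so both sums mainly describe these single genes.

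**Figure D1:**
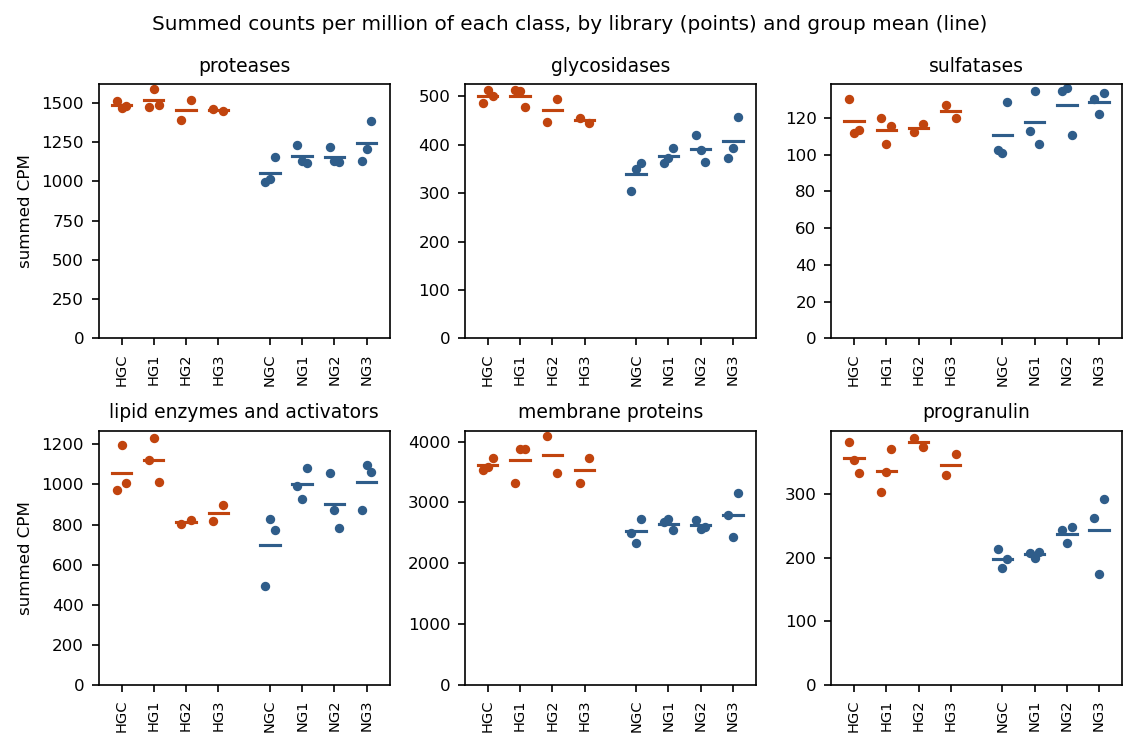
Summed CPM of each class on the vertical axis, with 1 point for each of 22 libraries, a line for each group mean, and high-glucose groups (orange) left of normal-glucose groups (blue). The protease, membrane protein and progranulin sums of all 10 high-glucose libraries lie above those of all 12 normal-glucose libraries, while sulfatases and lipid enzymes overlap.

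Among the proteases, Tpp1, which removes tripeptides from the ends of proteins and is lost in a childhood form of neuronal ceroid lipofuscinosis, had 128 to 167 CPM (median 148) in high-glucose libraries and 81.3 to 134 CPM (median 98.4) in normal-glucose libraries. The ranges met only through NG3 replicate 3, and the log2 change was 0.61 ± 0.07 (edgeR adjusted p = 1.76e-08). Ctsd, the aspartic protease cathepsin D, had 339.9 to 455 CPM (median 415) in high glucose and 247 to 378 CPM (median 294) in normal glucose. It was likewise overlapped by NG3 replicate 3 alone, and rose by 0.52 ± 0.06 (adjusted p = 5e-08). Ctsa, the carboxypeptidase that also protects beta-galactosidase and neuraminidase in a complex, had 44.1 to 68.9 CPM (median 53.7) in high glucose, against 26.3 to 45.9 CPM (median 35.0) in normal glucose (log2 change 0.65 ± 0.09, adjusted p = 4.84e-07). Its overlap came from NG2 replicate 1 on the normal-glucose side. The cysteine cathepsin Ctsb spanned 208 to 257 CPM in high glucose and 139.9 to 209 CPM in normal glucose (log2 change 0.40 ± 0.06, adjusted p = 2.93e-06). Smaller rises were found for Ctsl (0.29 ± 0.06, adjusted p = 0.000695) and for Lgmn, the asparaginyl endopeptidase legumain (0.28 ± 0.09, adjusted p = 0.0472). The call of Lgmn lies at the threshold and was lost in 14 of 22 fits that left out 1 library. Ctsz did not pass, with 59.5 to 111 CPM in high glucose and 53.9 to 84.5 CPM in normal glucose (log2 change 0.15 ± 0.08, adjusted p = 0.274). Part of the exons of Ctsb and Ctsa overlap genes on the opposite strand (Fdft1 for Ctsb, Neurl2 and Pltp for Ctsa), and the sources used here do not say whether reads were counted by strand. Fdft1 had 32.0, Neurl2 2.20 and Pltp 0.391 mean CPM over the 22 libraries. Genes at over 10 mean CPM also lay opposite part of the exons of Lamp1 (Grtp1, 20.4 CPM), Ppt1 (Cap1, 31.0 CPM) and Ctsz (Nelfcd, 21.8 CPM), and Gm49369, which overlaps Ctsd on the same strand, was counted at 0.

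The glycosidases were split between clear rises and no detectable change. Neu1, the sialidase that removes sialic acid from glycans, had 25.4 to 39.4 CPM (median 29.8) in high-glucose and 9.03 to 24.8 CPM (median 15.4) in normal-glucose libraries, with no overlap (log2 change 0.94 ± 0.13, edgeR adjusted p = 2.57e-06). Hexa, the alpha subunit of hexosaminidase whose loss causes Tay-Sachs disease, had 89.8 to 145 CPM (median 117) in high glucose, against 52.0 to 107 CPM (median 69.9) in normal glucose. Again only NG3 replicate 3 reached the high-glucose range, and the log2 change was 0.72 ± 0.07 (adjusted p = 9.84e-10). Aga, which cleaves the bond between asparagine and a glycan, had 60.6 to 88.9 CPM (median 71.8) in high glucose and 42.8 to 67.2 CPM (median 51.5) in normal glucose (log2 change 0.52 ± 0.07, adjusted p = 3.56e-07). Gla, the alpha-galactosidase deficient in Fabry disease, was a low-count gene, at 10.6 to 21.9 CPM in high glucose and 6.18 to 13.0 CPM in normal glucose (log2 change 0.81 ± 0.14, adjusted p = 5.93e-05). Gaa, the glycogen-degrading alpha-glucosidase, had 61.8 to 94.9 CPM in high glucose and 44.0 to 62.1 CPM in normal glucose (log2 change 0.52 ± 0.08, adjusted p = 3.58e-06). For both, 9 of 10 high-glucose libraries lay above every normal-glucose library. The other 6 tested members of the class did not pass. Man2b1, the alpha-mannosidase, was the flattest, at 37.3 to 59.9 CPM in high glucose and 32.1 to 60.7 CPM in normal glucose (log2 change 0.03 ± 0.08, adjusted p = 0.899). Glb1 (beta-galactosidase), Idua (alpha-iduronidase) and Fuca1 (alpha-fucosidase) had negative estimates of -0.11 ± 0.13, -0.15 ± 0.20 and -0.08 ± 0.08, and Gusb (beta-glucuronidase) and Naglu positive ones of 0.11 ± 0.08 and 0.20 ± 0.16. The adjusted p-values of these 5 were 0.474 or higher.

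Sulfatases, which strip sulfate groups from glycosaminoglycans and sulfolipids, rose in 2 of 5 cases. Arsa, which degrades sulfatide and is deficient in metachromatic leukodystrophy, had 16.9 to 28.3 CPM (median 21.1) in high glucose and 8.44 to 24.9 CPM (median 15.5) in normal glucose, with overlapping ranges (log2 change 0.56 ± 0.18, edgeR adjusted p = 0.0436). Sgsh, the heparan sulfatase of Sanfilippo syndrome, had 8.57 to 13.7 CPM in high glucose and 4.80 to 11 CPM in normal glucose (log2 change 0.47 ± 0.16, adjusted p = 0.0461). Both calls were near the threshold and were lost in 15 and 14 of the 22 fits that left out 1 library. Ids, the iduronate sulfatase of Hunter syndrome, had the opposite sign. It spanned 53.7 to 72.4 CPM (median 65.4) in high glucose and 64.9 to 87.3 CPM (median 78.2) in normal glucose. Its log2 change of -0.21 ± 0.07 just missed the threshold in edgeR (adjusted p = 0.0512) and passed it in DESeq2 (adjusted p = 0.0438), within a range of 0.0283 to 0.194 over all alternatives. Galns and Arsb did not pass (-0.14 ± 0.19 and 0.10 ± 0.15), Arsb having 8.27 to 16.9 CPM in high glucose and 6.65 to 18.9 CPM in normal glucose.

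Of the lipid enzymes and activators only Ppt1 rose. This palmitoyl-protein thioesterase, which removes fatty acids from modified proteins, had 51.6 to 76.3 CPM (median 65.7) in high-glucose and 46.1 to 59.3 CPM (median 51.6) in normal-glucose libraries, where 9 of 10 high-glucose libraries lay above every normal-glucose library (log2 change 0.35 ± 0.07, edgeR adjusted p = 0.000989). Asah1, the acid ceramidase, had 51.3 to 68.6 CPM in high glucose and 36.9 to 65.5 CPM in normal glucose (0.23 ± 0.09, adjusted p = 0.0952). Smpd1, the acid sphingomyelinase, had 27.9 to 37 CPM in high glucose and 24.8 to 40.6 CPM in normal glucose (0.15 ± 0.09, adjusted p = 0.32). Gm2a, the activator that presents GM2 ganglioside to hexosaminidase, showed no detectable difference (-0.03 ± 0.10, adjusted p = 0.899), with 25.9 to 44.6 CPM in high glucose and 25.7 to 51.8 CPM in normal glucose. Psap had 618 to 1019 CPM in high glucose and 352 to 924 CPM in normal glucose (0.11 ± 0.10, adjusted p = 0.549), and is taken up again with the mogroside V groups.

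The membrane proteins rose in 5 of 7 cases. Ctns, which exports cystine from the lysosome, had 13.3 to 29.1 CPM (median 16.6) in high glucose and 6.4 to 14.8 CPM (median 9.71) in normal glucose. This was the largest log2 change of the 36 tested members, 0.96 ± 0.15 (edgeR adjusted p = 1.57e-05), with a single library on each side in the overlap. Lamp2, a structural glycoprotein that also acts in chaperone-mediated autophagy, had 419 to 529 CPM (median 471) in high glucose and 274 to 439 CPM (median 357) in normal glucose (0.45 ± 0.05, adjusted p = 9.75e-08). Cd63 had 2125 to 2944 CPM (median 2533) in high glucose and 1528 to 2141 CPM (median 1827) in normal glucose (0.52 ± 0.06, adjusted p = 5.9e-09). For Lamp2 and Cd63, NG3 replicate 3 was the only normal-glucose library within the high-glucose range. The counts of Cd63 are uncertain to the extent that reads were shared with its pseudogene Cd63-ps, which was counted at 114 to 308 CPM in high glucose and 83.1 to 229 CPM in normal glucose (log2 change 0.52 ± 0.16, adjusted p = 0.0552). Lamp1 had 394 to 771 CPM (median 521) in high glucose, against 216 to 463 CPM (median 391) in normal glucose (0.52 ± 0.08, adjusted p = 5.11e-05). Mcoln1, the calcium channel mucolipin 1, passed at the threshold (0.49 ± 0.16, adjusted p = 0.0482) and lost its call in 14 of the 22 fits that left out 1 library. Scarb2, the receptor that carries glucocerebrosidase to the lysosome, did not pass (0.11 ± 0.07, adjusted p = 0.388), nor did Cln3 (0.25 ± 0.20, adjusted p = 0.514), whose range in normal glucose, 3.04 to 12.9 CPM, held its range in high glucose, 4.67 to 8.24 CPM.

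Grn encodes progranulin, a secreted glycoprotein that is cut into granulins inside lysosomes and whose loss leads to frontotemporal dementia or ceroid lipofuscinosis. It had 304 to 389 CPM (median 359) in high-glucose and 175 to 293 CPM (median 211) in normal-glucose libraries. All 10 high-glucose libraries lay above all 12 normal-glucose libraries, as only Neu1 did among the other tested members (0.572% of all tested genes lay apart in that direction and 0.211% in the other). The change was 1.66-fold (log2 0.73 ± 0.06, edgeR adjusted p = 1.31e-11), the lowest p of the 36.

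**Figure D2:**
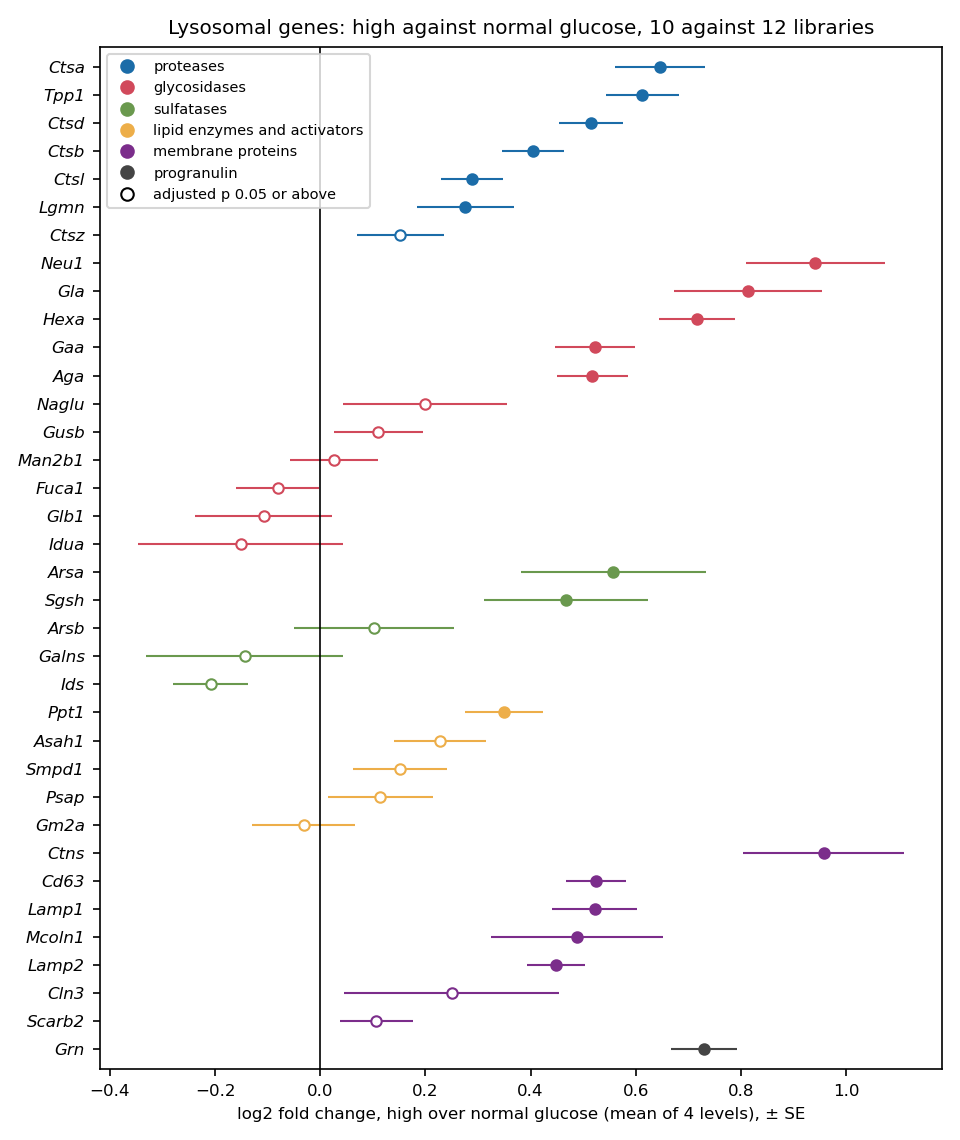
Log2 fold change of high over normal glucose with its standard error (horizontal axis) for the 36 tested members, averaged over 4 treatment levels and grouped by class. Filled points passed an adjusted p of 0.05 (20 members, all above 0), and open points did not.

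**Figure D3:**
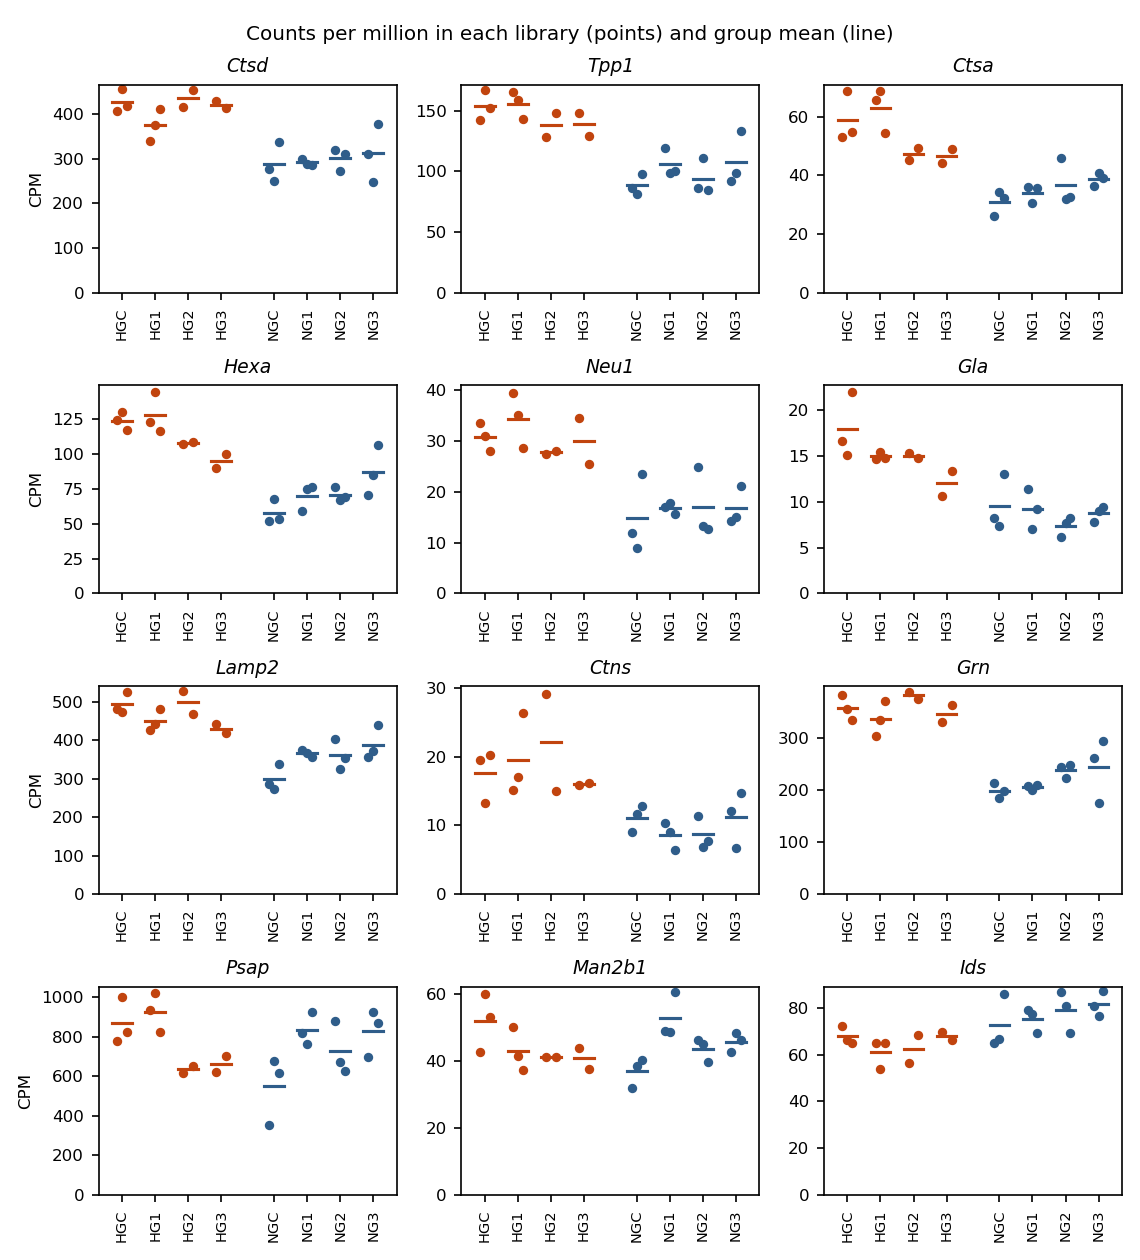
CPM of 12 members in each of 22 libraries (points) with group means (lines), high-glucose groups in orange left of normal-glucose groups in blue. Grn and Neu1 show no overlap between the media, Psap is lowest in NGC and lower in HG2 and HG3 than in HG1, and Ids runs the other way.

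The promoter element and the glucose difference were set side by side as a description. TCACGTG was in a window of 9 of the 18 members that rose and had a promoter in the table (50%), and of 3 of the 14 that did not pass (21.4%). Among those 9, the calls of Arsa, Lgmn, Mcoln1 and Sgsh lay near the threshold and were lost in most of the leave-one-out fits given above. The difference between these shares therefore rests in part on unstable calls. The median log2 change was 0.50 over the 12 tested members with the element, among them Lamp1, Gla and Ctsa, and 0.15 over the 20 without it. Largest changes occurred on both sides, since the windows of Ctns, Neu1, Grn and Hexa held no TCACGTG, and Cln3, with 2 sites, did not pass.

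The untreated controls were then compared on their own. In HGC against NGC (n = 3 each) 12 of 36 members rose and 0 fell, where 1.87% of all tested genes rose and 0.392% fell. The median log2 change was 0.46 over the members and -0.01 over all tested genes, and 33 of 36 (48.3% of all genes) were above 0. In 21 members every HGC library lay above every NGC library (8.46% of all genes), and in 0 below (9.69% of all genes). The 12 that passed were Ctsa, Ctsb, Ctsd, Tpp1, Hexa, Gaa, Gla, Neu1, Lamp1, Lamp2, Cd63 and Grn, so no sulfatase or lipid enzyme was among them. All 5 lipid enzymes and activators nevertheless had a positive estimate, with a median log2 change of 0.38, and the sulfatases had 0.24. The median was 0.57 for proteases, 0.43 for glycosidases and 0.67 for membrane proteins, and a difference between classes was not tested.

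Ctsa had 53.1, 68.7 and 54.7 CPM in HGC and 26.3, 34.2 and 32.2 CPM in NGC, a 1.92-fold difference (log2 0.94 ± 0.16, edgeR adjusted p = 0.000191). Tpp1 had 143, 167 and 153 CPM in HGC and 86.6, 81.3 and 97.8 CPM in NGC (0.81 ± 0.13, adjusted p = 9.13e-05). Ctsb had 221, 225 and 215 CPM in HGC and 139.9, 148 and 159.9 CPM in NGC (0.57 ± 0.11, adjusted p = 0.00107). For these proteases every HGC library was above every NGC library. The same held for Ctsd, with 407, 455 and 417 CPM in HGC and 278, 250.3 and 338 CPM in NGC (0.57 ± 0.12, adjusted p = 0.00183). Hexa had 124, 130.3 and 118 CPM in HGC and 52.0, 67.8 and 53.5 CPM in NGC, with the lowest p of the members in this comparison (adjusted p = 6.51e-07). Gaa had 78.4, 77.9 and 94.9 CPM in HGC and 48.0, 53.5 and 56.1 CPM in NGC (0.68 ± 0.14, adjusted p = 0.00332). The groups of both glycosidases were apart. Neu1 had 33.5, 31.0 and 27.9 CPM in HGC and 11.9, 9.03 and 23.5 CPM in NGC (1.08 ± 0.25, adjusted p = 0.0112), NGC replicate 3 lying close to the HGC values. Gla had 16.6, 15.2 and 21.9 CPM in HGC and 8.25, 7.37 and 13.0 CPM in NGC (0.91 ± 0.26, adjusted p = 0.0478). The call of Gla was at the threshold and was lost in 14 of 22 fits that left out 1 library, and that of Neu1 was lost without NGC replicate 1 or 2 or HGC replicate 1 or 2. Their adjusted p-values ranged from 0.0184 to 0.252 for Gla and from 0.000249 to 0.126 for Neu1.

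Lamp1 had 494, 603 and 532 CPM in HGC and 216, 363 and 374 CPM in NGC (0.79 ± 0.15, edgeR adjusted p = 0.00298). NGC replicate 1 was far below the other NGC libraries, and the call was lost when NG3 replicate 3 and HGC replicate 2 were left out together (adjusted p = 0.0837, within a range of 1.43e-09 to 0.0837). Lamp2 had 481, 473 and 526 CPM in HGC and 286, 274 and 339 CPM in NGC (0.73 ± 0.10, adjusted p = 8.16e-06). Cd63 had 2460.5, 2393 and 2555 CPM in HGC and 1915, 1610.3 and 1931 CPM in NGC (0.45 ± 0.11, adjusted p = 0.0123), and its call was lost without NGC replicate 2 or HGC replicate 3. The Cd63-ps pseudogene did not pass in this comparison (log2 change 0.24 ± 0.31, adjusted p = 0.833). Grn had 383, 355 and 334 CPM in HGC and 214, 184 and 197 CPM in NGC, 1.81-fold apart (0.85 ± 0.12, adjusted p = 6.32e-06).

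The treated libraries, which share none with the controls, were compared in the same way (HG1 to HG3 against NG1 to NG3). Both comparisons came from the same fit and share its estimate of each gene's spread, so their calls are not independent. Of 36 members 16 rose and 0 fell, where 4.69% of all tested genes rose and 3.41% fell, and the median log2 change was 0.31 over the members and -0.01 over all tested genes. The estimate was above 0 in 28 of 36 (48.2% of all genes), and the 2 sets of libraries lay apart in 4 members, all higher in high glucose (0.873% of all genes, and 0.738% in the other direction). All 12 members called in the controls were called again, 100% of the 12 and 75% of the 16. Over all tested genes 192 were called in the same direction in both, 63.8% of the 301 called in the controls and 17.8% of the 1076 called in the treated libraries. The 4 further members were Ctsl (0.28 ± 0.07, edgeR adjusted p = 0.00862), Aga (0.55 ± 0.08, adjusted p = 5.65e-06), Ppt1 (0.34 ± 0.09, adjusted p = 0.00995) and Ctns (1.05 ± 0.18, adjusted p = 8.07e-05). Ppt1 lost its call without HG2 replicate 1. Hexa had 123, 145 and 117 CPM in HG1, 107 and 109 CPM in HG2 and 89.8 and 101 CPM in HG3, against 59.1, 75.1 and 76.8 CPM in NG1, 76.2, 67.0 and 69.3 CPM in NG2 and 70.5, 85.4 and 107 CPM in NG3. Its media overlapped only at the third dose label. Grn had 304, 335 and 372 CPM in HG1, 389 and 374 CPM in HG2 and 330.2 and 363 CPM in HG3, against 207, 200.3 and 209 CPM in NG1, 243, 223 and 248 CPM in NG2 and 262, 175 and 293 CPM in NG3, and stayed apart at each label.

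**Figure D4:**
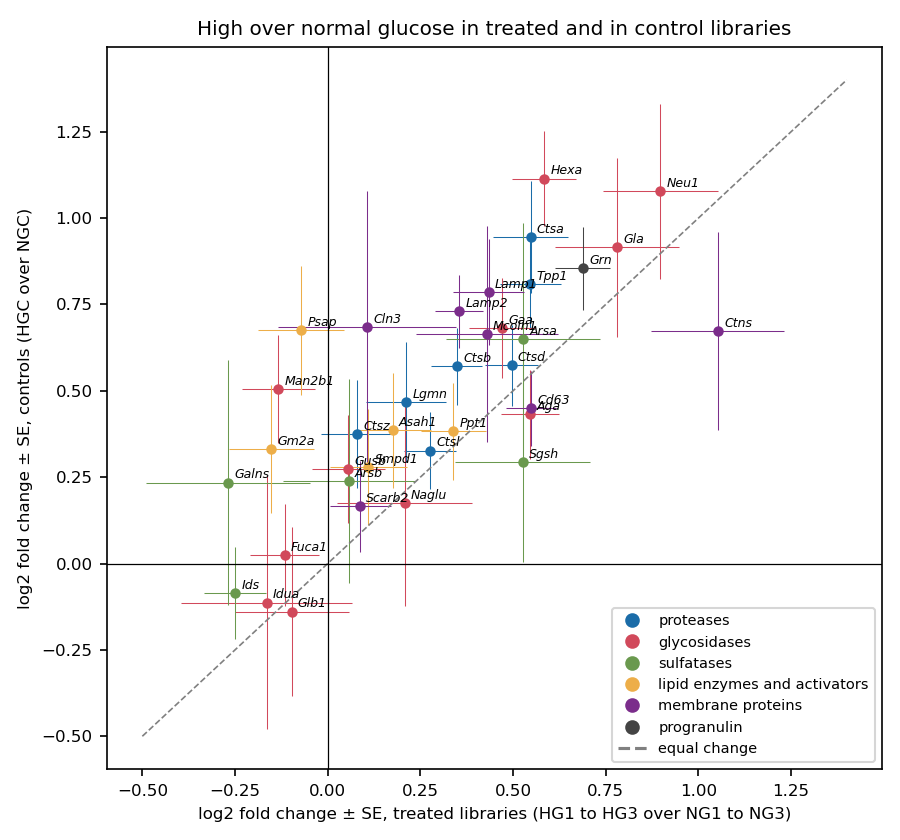
Log2 fold change of high over normal glucose in treated libraries (horizontal axis) and in controls (vertical axis) for 36 members, with standard errors, coloured by class, and a dashed line of equal change. Most points lie in the upper right, and Psap, Man2b1, Galns, Gm2a and Fuca1 have a positive estimate in controls and a negative one in treated libraries.

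By dose label the number of members called fell short of the pooled comparison, with 2 or 3 libraries a group. In HG1 against NG1 10 members rose (1.32% of all genes rose), Hexa with 0.91 ± 0.14 and Ctsa with 0.93 ± 0.16 on the log2 scale. In HG2 against NG2 7 rose (0.61% of all genes), and in HG3 against NG3 3 rose, Ctsd, Cd63 and Grn (0.678% of all genes). No member fell at any label, where 0.346, 0.151 and 0.241% of all genes fell at labels 1 to 3, and Grn and Cd63 passed at each label and in the controls. Counting signs over the 4 levels, 22 of 36 members had a positive change at all 4, against 12.8% of all tested genes, and 2 members a negative change at all 4, against 13.7% of all tested genes. At HG3 against NG3 the change of Hexa was 0.19 ± 0.15 (edgeR adjusted p = 0.658), whereas it was 0.65 ± 0.15 at label 2. Whether the glucose difference of a member differs between single dose labels was not tested.

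Other lysosomal genes were taken from 3 further lists, also chosen with earlier results of these data known. Their counts are to be read against the 5.71% of all tested genes that rose and the 4.38% that fell over the 4 levels. Of 35 other lysosomal enzymes and soluble proteins 27 were tested, and over the 4 levels 10 rose and 1 fell, with a median log2 change of 0.11. Among the lowest p-values were those of Dpp7, a dipeptidyl peptidase (1.18 ± 0.09, edgeR adjusted p = 1.17e-13) and the serine carboxypeptidase Scpep1 (0.70 ± 0.06, adjusted p = 3.91e-12). Naaa, an amidase of fatty acid ethanolamides, fell (-0.52 ± 0.17, adjusted p = 0.0483). Of 25 tested of 28 other membrane proteins 3 rose and 1 fell, with a median log2 change of 0.06, against 0.49 in the 7 membrane proteins among the members. The amino acid transporter Slc36a1 (0.61 ± 0.09, adjusted p = 1.47e-06), Tmem192 (0.58 ± 0.12, adjusted p = 0.00103) and Laptm4b (0.21 ± 0.07, adjusted p = 0.0326) were higher, and the polyamine transporter Atp13a2 lower (-0.50 ± 0.14, adjusted p = 0.0167). Of 14 genes listed for mannose 6-phosphate sorting and sulfatase activation 4 rose and 0 fell, with a median log2 change of 0.13. The list also holds Cln6 and Cln8, which act in neither step. The rises were led by the Golgi adaptor Gga2 (0.96 ± 0.17, adjusted p = 5.51e-05), Cln8 (0.44 ± 0.10, adjusted p = 0.00362) and Nagpa, which uncovers the mannose 6-phosphate tag (0.43 ± 0.10, adjusted p = 0.00393).

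Mogroside V changed no member past the threshold. In normal glucose (NG1 to NG3 against NGC) 0 of 36 members and 0% of all tested genes passed in edgeR. At an unadjusted p under 0.05 there were 7 members (8.44% of all genes), and DESeq2 called 1, Psap. The median log2 change was 0.16 over the members and 0.00 over all tested genes, with 31 of 36 above 0 (50.6% of all genes). In high glucose (HG1 to HG3 against HGC) 0 members and 0% of all genes passed, 2 members had an unadjusted p under 0.05 (5.12% of all genes), and DESeq2 called 0. The median was -0.03 over the members, and 15 of 36 were above 0 (48.5% of all genes). Averaged over both media 0 members and 0% of all genes passed, with 1 member at an unadjusted p under 0.05 (4.74% of all genes) and 0 by DESeq2, and 26 of 36 were above 0 (48.9% of all genes). The comparison within normal glucose and that of HGC with NGC share the NGC libraries, and the comparison within high glucose shares HGC with it, so their estimates are not independent.

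The lowest p-values over both media belonged to Aga, Gla and Arsb. Aga had 63.7, 60.6 and 65.0 CPM in HGC, 72.6, 70.9 and 67.7 in HG1, 80.1 and 88.9 in HG2 and 74.2 and 73.2 in HG3. In normal glucose it had 42.8, 47.1 and 51.4 CPM in NGC, 46.8, 48.0 and 45.8 in NG1, 67.2, 56.2 and 55.7 in NG2 and 59.3, 51.5 and 56.7 in NG3. The treated libraries were above the controls in high glucose and overlapped them in normal glucose, and the mean change was 0.21 ± 0.08 on the log2 scale (edgeR adjusted p = 0.994). Gla had 16.6, 15.2 and 21.9 CPM in HGC, 14.7, 15.5 and 14.8 in HG1, 15.3 and 14.8 in HG2 and 10.6 and 13.4 in HG3, and 8.25, 7.37 and 13.0 CPM in NGC, 11.4, 7.06 and 9.25 in NG1, 6.18, 7.70 and 8.28 in NG2 and 7.86, 9.05 and 9.49 in NG3. Its estimate was -0.29 ± 0.15 (adjusted p = 0.994), with overlap of treated and control libraries in both media. For Arsb, which removes sulfate from dermatan sulfate, it was 0.33 ± 0.17 (adjusted p = 0.994), with 8.27 to 16.9 CPM over all high-glucose libraries and 6.65 to 18.9 CPM over all normal-glucose libraries.

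Psap, whose product is cut into the saposins that help sphingolipid enzymes reach their substrates, had treatment estimates of opposite sign in the 2 media. It had 779, 1000.4 and 825 CPM in HGC, 934, 1019 and 823 in HG1, 618 and 653 in HG2 and 623 and 700.3 in HG3. In normal glucose it had 352, 679 and 614 CPM in NGC, 816, 762 and 924 in NG1, 878, 674 and 628 in NG2 and 695, 923 and 867 in NG3. NGC replicate 1 was the lowest of all 22 libraries, and the HG2 and HG3 libraries lay below all of HGC and HG1. The estimates were 0.49 ± 0.16 in normal glucose (edgeR adjusted p = 0.321), -0.26 ± 0.16 in high glucose (adjusted p = 0.979) and -0.75 ± 0.22 for the difference between them (adjusted p = 0.275), none past the threshold. DESeq2 gave an adjusted p of 0.0329 in normal glucose. Between the untreated controls Psap had 0.67 ± 0.19 (adjusted p = 0.0722, within 5.44e-05 to 0.342 over the alternatives). Psap was chosen for this description after its values were seen.

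The interaction of treatment and glucose was past the threshold for 0 of 36 members, where 0.00753% of all tested genes were higher and 0% lower. At an unadjusted p under 0.05 there were 6 members (8.48% of all genes), and DESeq2 called 0. The median interaction was -0.18 over the members and 0.00 over all genes, with 6 of 36 above 0 (49.7% of all genes), and the lowest p was that of Man2b1 (-0.64 ± 0.19, edgeR adjusted p = 0.227). By single dose label against its own control no member passed in any of the 6 comparisons. Those of edgeR with the most members at an unadjusted p under 0.05 were NG3 against NGC, with 7 (10.4% of all genes), and NG1 against NGC, with 5 (4.89% of all genes). DESeq2 called 2 in NG3 against NGC, Hexa (0.53 ± 0.14 in edgeR, adjusted p = 0.094, DESeq2 adjusted p = 0.0222) and Psap. In edgeR 0.00753% of all tested genes rose and 0.12% fell in NG3 against NGC, and the share called by DESeq2 is not given. The median standard error of a member was 0.16 on the log2 scale in HGC against NGC and 0.08 over the 4 levels. Over all tested genes it was 0.23 and 0.12.

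**Figure D5:**
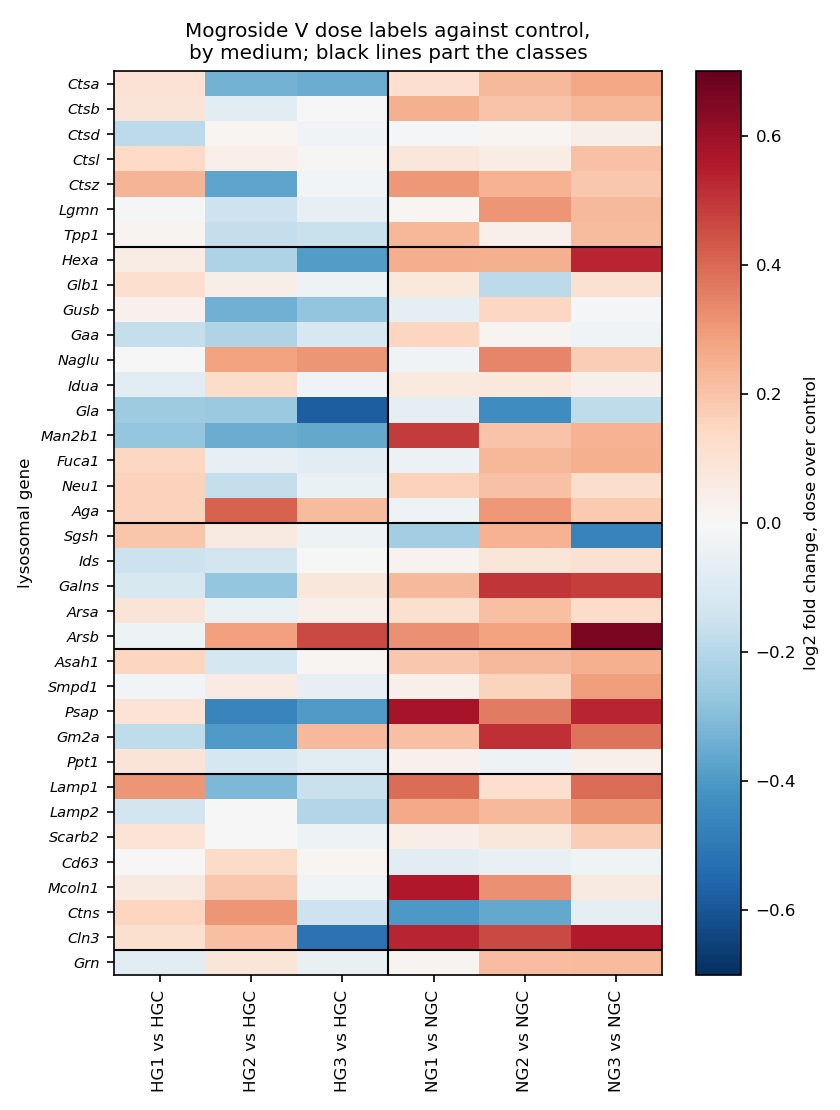
Log2 fold change of each dose label over its own control for 36 members (rows, grouped by class), in high glucose (left) and normal glucose (right), on a colour scale from blue (lower) to red (higher). In high glucose 21, 16 and 9 of 36 members are above 0 at labels 1 to 3, in normal glucose 27, 31 and 30, and no cell passed the adjusted threshold.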

How the data were processed

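The 37 members, the other lists and the tests were chosen with earlier results of these data known. Per the labels, RNA was polyadenylated and libraries were made with a VAHTS kit. Each deposited file gives raw whole-number counts of reads per gene. STAR 2.7.5c, HTSeq 1.99.2, FastQC 0.11.9, DESeq2 3.16 and the build GRCm39 are listed in the submitters' processing notes, and the annotation release is not named in the sources. The 5 HTSeq summary lines stayed out of library sizes (14.4 to 20.6% of reads outside genes, 3.46 to 4.15% ambiguous, 16.5 to 18.9% not unique).

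CPM were counts per 1000000 gene counts. Exon lengths and overlaps came from GENCODE for GRCm38, matched by gene ID. The counts of 22 libraries were fitted with edgeR 4.0.16 in R 4.3.3 (TMM factors, default low-count filter, 8 group means, robust quasi-likelihood F tests), with Benjamini-Hochberg adjustment over 13281 genes and a threshold of 0.05. The fit had 14 residual degrees of freedom. Values are CPM or log2 change ± SE. DESeq2 1.42.0, RLE factors, no filter, only the groups compared, the replicate number as a block, the identical library used once in HG2 or HG3, NG3 replicate 3 and HGC replicate 2 left out, and each library left out were alternatives. Class sums with the identical library were added after seeing the data. Named were, per class, the 3 lowest and the highest p over 4 levels, every member called in the controls, and the 3 lowest p for mogroside V. On simulated counts of 13281 genes the HGC against NGC test recovered 10, 46 and 74% of changes of 0.4, 0.7 and 1 on the log2 scale. The changed genes were drawn at random above a CPM floor, not from the members, whose standard errors were smaller, so these shares may not hold for members.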

Additional observations from a re-analysis of the deposited data

How the results depend on the processing

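For high against normal glucose over 4 levels the number of members called ranged from 18 to 22 over the other settings, against 20, and from 16 to 19 in fits that left out 1 library. In the controls it ranged from 11 to 14, against 12, and from 10 to 14 with 1 library out. In treated libraries it ranged from 16 to 18, against 16, and from 15 to 17 with 1 library out. In 9 of 12, 16 of 20 and 15 of 16 cases the member was called in each of the 22 fits that left out 1 library. Counts at single dose labels rest on few libraries. HG1 against NG1 gave 10 members and 4 to 13 with 1 library out (5 without NG1 replicate 2 or 3, 4 without HG1 replicate 2). HG2 against NG2 gave 7 and 0 to 9 (3 without NG2 replicate 2 or 3 or HG2 replicate 2, 0 without HG2 replicate 1). HG3 against NG3 gave 3 and 0 to 4 (1 without NG3 replicate 2, 0 without HG3 replicate 1 or 3). There DESeq2 and no filter gave 5, the identical library used in HG3 gave 6, and a fit of only those groups gave 0, and the cause was not tested. For mogroside V in normal glucose DESeq2 and no filter gave 1 (Psap), and for the interaction no filter gave 1 (Psap). NG3 against NGC gave 2 with DESeq2 and with no filter, and 0 to 1 with 1 library out (1 without NG3 replicate 1). The replicate number as a block gave 12 members in the controls, 19 over 4 levels (Lgmn lost, adjusted p = 0.0503) and 16 in treated libraries. No general pairing by replicate number was seen. Deviations of same-numbered libraries correlated at -0.17 to 0.26 with a median of 0.00, against -0.22 to 0.21 for other pairs. Whether some of the groups shared a batch was not tested. Depth and n = 2 in HG2 and HG3 limit the single-label comparisons.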
